A study of Mus musculus with 3 samples.

Results

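Described here are 8 genes used as markers of the proepicardium and of the venous pole of the heart, chosen by symbol from the 51923 genes of the matrix: Wt1, Tbx18, Upk3b, Tcf21, Shox2, Tbx3, Mab21l2 and Alcam. All 8 were found. They were followed by stage and genotype, by cluster of cells, and cell by cell with each other and with Tnnt2, which encodes cardiac troponin T and marks heart muscle. The cells came from C57BL/6 mouse embryos that carried Mesp1-Cre, which is active in early mesoderm, and the Ai9 tdTomato reporter, and tdTomato-positive cells were sorted. Control embryos were Wls fl/+ and mutants Wls fl/fl, so that controls also carried the Cre, the reporter and a floxed allele. Wls encodes the carrier that brings Wnt ligands to the cell surface. The authors' per-cell table calls the groups wildtype and knockout, which were read as control and mutant.

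The proepicardium is a cluster of mesothelial cells at the venous pole of the looping heart, the end where blood enters. Its cells move onto the heart surface and form the epicardium, which later gives fibroblasts and vascular smooth muscle. The neighbouring venous pole myocardium, the sinus venosus, forms the pacemaker of the heart. Wt1, Tbx18 and Tcf21 are transcription factors of the proepicardium and epicardium, and Tbx18 also acts in the sinus venosus and in somites. Upk3b encodes a uroplakin of mesothelial cells. Shox2 and Tbx3 are transcription factors of the pacemaker, and Tbx3 is used in other mesoderm too. Mab21l2 is needed for proepicardial development, and Alcam encodes a cell adhesion protein.

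The matrix held 14777 cells and 331587989 UMIs (counted molecules), with a median of 21739 UMIs per cell. Cells were labelled with MULTI-seq barcodes, and the cells of a barcode were summed to a barcode sample. At E8.0 there were 3 control and 3 mutant samples, at E8.5 2 controls and 1 mutant, at E9.5 6 and 6, and at E7.5 1 control. The samples held 6 to 2508 cells, and the 6-cell E9.5 control, Bar6, had 134457 UMIs. The number of embryos behind a barcode is not given in the sources used here, so p-values measure the spread between barcode samples, which may be partly technical. Levels are given as CPM, the UMIs of a gene scaled to the UMI total of the sample. Wls, the targeted gene, was at 35.9 to 46.1 CPM in E9.5 controls and 8.54 to 12.1 in mutants, and at E8.0 at 54.1 to 65.4 and 7.25 to 14.2, with no overlap at either stage. Only 23 cell barcodes occurred in more than 1 run.

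In the GRCm38 build with GENCODE M21 genes, Wt1 lies at chr2:105126529-105173616 (plus strand), Tbx18 at chr9:87702800-87731260 (minus) and Upk3b at chr5:136038496-136046487 (plus). Tcf21 lies at chr10:22817281-22820174 (minus), Shox2 at chr3:66971727-66981771 (minus) and Alcam at chr16:52248996-52454074 (minus). Tbx3 lies at chr5:119670669-119684724 (plus), and its first bases overlap the antisense gene Tbx3os1. Mab21l2 lies at chr3:86545581-86548629 (minus), inside the span of Lrba on the other strand. Whether counting used the strand is not given in the sources used here, so reads of Tbx3 and Mab21l2 from these overlaps cannot be told apart. Promoter windows for 6 of the 8 genes were in the RefSeq table for GRCm38.p6. The 250 bases before the start site are shown for Upk3b, which was higher in E9.5 mutants, and for Tbx18 and Shox2, which did not pass that test. Capitals mark matches to the motifs that were searched on both strands. The letters for TCF/LEF, factors of the Wnt pathway, were CTTTGA. Those for the GATA family were AGATAA. T-box factors were searched as AGGTGT. For TEAD factors the letters GGAATG were used. The WT1 letters were GCGTGGG.
Upk3b, chr5:136038246-136038495, plus strand: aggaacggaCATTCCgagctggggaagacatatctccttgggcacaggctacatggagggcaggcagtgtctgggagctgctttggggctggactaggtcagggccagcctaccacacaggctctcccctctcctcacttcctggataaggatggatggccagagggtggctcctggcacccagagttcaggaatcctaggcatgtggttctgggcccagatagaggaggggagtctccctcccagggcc
Tbx18, chr9:87731261-87731510, minus strand: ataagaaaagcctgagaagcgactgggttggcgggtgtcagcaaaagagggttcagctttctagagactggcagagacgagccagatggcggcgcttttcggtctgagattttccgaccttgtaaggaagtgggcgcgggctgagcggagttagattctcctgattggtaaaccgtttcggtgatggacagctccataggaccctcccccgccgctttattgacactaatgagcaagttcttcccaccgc
Shox2, chr3:66981772-66982021, minus strand: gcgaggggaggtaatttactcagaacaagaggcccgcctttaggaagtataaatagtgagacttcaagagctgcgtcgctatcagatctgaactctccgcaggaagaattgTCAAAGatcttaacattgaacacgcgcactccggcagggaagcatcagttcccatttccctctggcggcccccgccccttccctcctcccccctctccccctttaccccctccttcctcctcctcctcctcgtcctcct
The Upk3b window held 1 TEAD match and the Shox2 window 1 TCF/LEF match. The Tcf21 window held 1 TCF/LEF and 1 GATA match. No match was found in the Tbx18, Mab21l2 and Alcam windows. The start sites of the window table differ from the GENCODE spans for some genes. The Mab21l2 and Alcam windows lie inside the gene spans given above, and the Tcf21 window overlaps its span. Over all 32851 windows of this length, 13.8% held the TCF/LEF letters, 9.99% GATA, 11.8% T-box, 12.6% TEAD and 4.30% WT1, so a match in 1 window is frequent by these letters.

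In summed samples, fewer cells of a type and less RNA per cell cannot be told apart. Between E8.0 and E9.5, 5 of the 8 genes rose: Upk3b, Wt1, Tbx18, Shox2 and Alcam (edgeR, genotype and run as covariates). Of all 17872 genes tested, 21.7% were called and 11.6% were called higher. Wt1 was at 0.645 to 2.99 CPM in the 6 E8.0 samples and at 4.19 to 26.5 in the 11 E9.5 samples of at least 20 cells, so these did not overlap. Its log2 change was 2.53 ± 0.32 (SE, edgeR adjusted p = 4.23e-05). Upk3b, at 0.54 to 2.15 CPM at E8.0, had the largest change of the 8, 2.93 ± 0.31 (edgeR adjusted p = 7.75e-06). These changes average over controls and mutants. In controls of at least 20 cells, Wt1 was at 1.44 to 2.67 CPM at E8.0 and 4.19 to 8.00 at E9.5. In mutants it was at 0.645 to 2.99 and 10.5 to 26.5. Upk3b was at 0.54 to 2.15 and 5.03 to 7.22 CPM in these controls, and at 1.16 to 1.53 and 7.47 to 29.1 in mutants. The stage change within 1 genotype was not tested. The proepicardial and somite factor Tbx18 changed by 1.61 ± 0.31, the pacemaker factor Shox2 by 1.38 ± 0.26 and the adhesion gene Alcam by 1.28 ± 0.22. In run 1 alone, which holds both stages, the same 5 genes passed, with the share of all genes called there not given here. The other three did not pass: Tcf21 at 0.17 ± 0.16, Mab21l2 at 0.17 ± 0.21 and Tbx3 at -0.15 ± 0.24. Tnnt2 fell by 0.88 on the log2 scale (edgeR adjusted p = 0.0426).

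E8.5 lay in 1 run with 1 mutant sample, so its values have no test. In the large E8.5 control, Bar3 (2508 cells), Wt1 stood at 8.30 CPM, Tbx18 at 21.7, Upk3b at 10.6 and Shox2 at 15.8. The E8.5 mutant, Bar1 (487 cells), had 6.11 for Wt1, 13.4 for Tbx18, 7.35 for Upk3b and 14.0 for Shox2. Shox2 in both was above the 11 E9.5 samples of at least 20 cells, whose highest value was 13.7 CPM. The second control, Bar2 (34 cells), was low for several of these genes, with Wt1 at 1.15 CPM, Tbx18 at 3.44 and Shox2 at 0, which allows up to 4.23 CPM (exact Poisson 95% limit), while Upk3b was at 8.02.

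**Figure D1:**
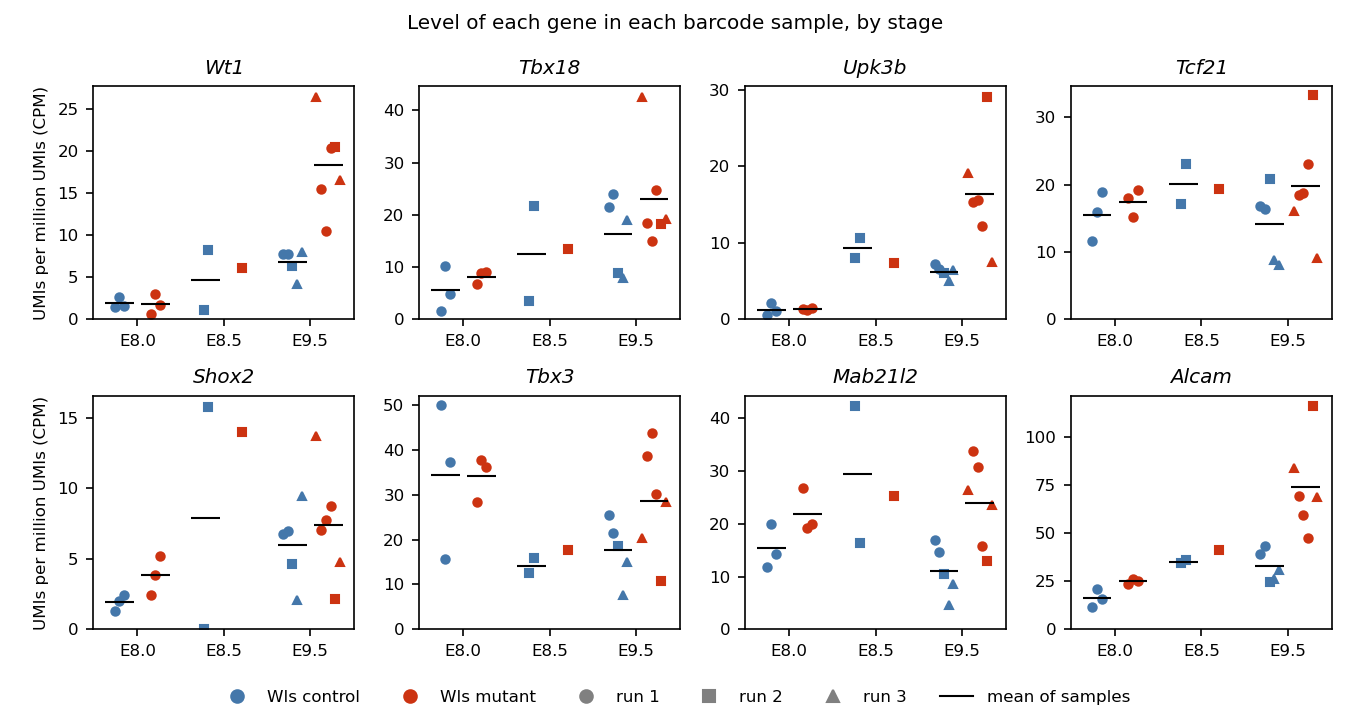
Level of each gene (y axis, CPM, linear from 0) in each barcode sample of at least 20 cells, by stage (x axis), genotype (colour) and run (symbol), with lines at group means. Wt1 and Alcam show E9.5 mutants above every control.

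At E9.5 the mutant samples had higher levels of Wt1, Upk3b, Alcam, Mab21l2 and Tbx3. These 5 of 8 passed edgeR's test with run as covariate, where 10.3% of 17227 genes were called and 5.71% were called higher. Wt1 in controls was at 4.19 at the lowest, 7.58 at the median and 8.00 CPM at the highest, and in mutants at 10.5, 18.5 and 26.5. All 6 mutants lay above the 5 controls of at least 20 cells, while the 6-cell control Bar6, with 1 Wt1 UMI (7.44 CPM, exact Poisson 95% interval 0.188 to 41.4), cannot be placed. The log2 difference was 1.28 ± 0.20 (SE, edgeR adjusted p = 0.00151). Upk3b was at 0, 6.22 and 7.22 CPM in controls and at 7.47, 15.5 and 29.1 in mutants. Here too the 6 mutants lay above the 5 larger controls, with a difference of 1.27 ± 0.21 (edgeR adjusted p = 0.00223). The lowest of these mutants, Bar8, had 14 Upk3b UMIs, so its gap to the highest control is within counting error. The control at 0, for this gene and the 3 that follow, was Bar6, in which a count of 0 allows up to 27.4 CPM (exact Poisson 95% limit, counting error only). Leaving out Bar6 kept 5 of 8 genes called, and the count of all genes called in that fit is not given here. How many of all genes had every mutant above the 5 larger controls was not counted.

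Alcam was at 0, 28.7 and 43.4 CPM in E9.5 controls and at 47.6, 69.2 and 116 in mutants. Without Bar6 the lowest control was at 24.5 CPM. The mutants lay above the 5 larger controls, and the difference was 1.08 ± 0.22 (edgeR adjusted p = 0.00795). Mab21l2 was at 0, 9.5 and 17.0 CPM in controls and at 12.9, 25 and 33.8 in mutants. Without Bar6 the lowest control was at 4.61 CPM. These ranges overlapped, with a difference of 1.01 ± 0.22 (edgeR adjusted p = 0.0110). Tbx3 was at 0, 16.7 and 25.5 CPM in controls and at 10.8, 29.3 and 43.7 in mutants, again with overlap, and the lowest control without Bar6 was at 7.54. Its difference of 0.62 ± 0.18 passed narrowly (edgeR adjusted p = 0.0439), and was no longer called when any 1 of 5 samples was left out (controls Bar22, Bar23 or Bar9, mutants Bar19 or Bar8), with adjusted p of 0.0654 to 0.209.

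Tcf21, Tbx18 and Shox2 did not pass at E9.5. Tcf21 differed by 0.45 ± 0.17 (95% interval 0.09 to 0.81, edgeR adjusted p = 0.102). Tbx18 differed by 0.30 ± 0.25 (-0.24 to 0.83) and Shox2 by 0.21 ± 0.25 (-0.32 to 0.74). The intervals of Tbx18 and Shox2 span 0. Run 1 was fitted alone and runs 2 and 3 together, since run 2 held 1 mutant. All 5 called genes were higher in mutants in both fits, but not every call held. Within run 2 Tbx3 was at 10.8 CPM in mutant Bar5 (57 cells, 10 Tbx3 UMIs) and at 18.5 in control Bar4, the other direction. In run 1 alone (3 mutants, 2 controls) Upk3b was 1.10 (edgeR adjusted p = 0.0163) and Tbx3 0.72 (0.0403), which passed, with the count of all genes called there not given here. There Wt1 was 1.05 (edgeR adjusted p = 0.0562), Mab21l2 0.81 (0.111) and Alcam 0.56 (0.0642). In runs 2 and 3, where 107 genes were called, Wt1 was 1.70 (edgeR adjusted p = 0.0180) and Alcam 1.75 (0.0244), which passed. There Upk3b was 1.63 (edgeR adjusted p = 0.116), Mab21l2 1.40 (0.0723) and Tbx3 0.55 (0.497).

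At E8.0 none of the 8 genes passed, where 0.0244% of 16416 genes were called by edgeR, and 1615 had an unadjusted p under 0.05. Alcam was at 11.7, 15.8 and 20.8 CPM in the 3 controls and at 23.5, 25.4 and 26.1 in the 3 mutants. The groups did not overlap, but the difference of 0.55 ± 0.19 had an edgeR adjusted p of 0.496. Shox2 was 0.91 ± 0.32 higher in mutants, with the same adjusted p, and its groups overlapped. Wt1 differed by -0.13 ± 0.48 and Upk3b by -0.03 ± 0.44. From 0.977 to 0.990 of the sexed cells in the E8.0 mutants were male, against 0.0275 to 0.511 in the controls. Sex and genotype thus cannot be told apart at this stage. At E9.5 male shares in run 1 were 0.0191 and 0.023 in controls and 0.0299, 0.969 and 0.981 in mutants. In run 2 they were 0.0165 in control Bar4 and 1.0 in control Bar6 and mutant Bar5. In run 3 they were 0.0266 and 0.936 in controls and 0.0293 and 0.0481 in mutants. E9.5 values of the 8 genes with male share as covariate are not given here. The 9 cardiomyocyte markers used for clusters summed to 1171 to 2037 CPM in the E8.0 controls and 2770 to 2921 in the mutants, with none at 0 in all, and their part in the Alcam and Shox2 values was not tested. The difference between the genotype effects at E9.5 and E8.0 was 1.41 ± 0.49 for Wt1 (edgeR adjusted p = 0.247) and 1.34 ± 0.50 for Upk3b (0.297). None of the 8 passed this test, in which 0.464% of genes were called, so an effect restricted to E9.5 was not shown. This depended on the filter: without the low-count filter Wt1 (1.35, edgeR adjusted p = 0.00827) and Upk3b (1.27, 0.0369) passed. There 669 genes were called, against 83 with the filter.

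With all stages in 1 model, Alcam (0.78 ± 0.17, edgeR adjusted p = 0.00618) and Mab21l2 (0.66 ± 0.18, 0.0241) were higher in mutants, 2 of 8 where 10.2% of 20831 genes were called and 4.47% called higher. Wt1 (0.71 ± 0.27) and Upk3b (0.72 ± 0.26) were of like size and did not pass, with adjusted p of 0.102 and 0.0806. The call of Mab21l2 was lost without any 1 of 4 samples (controls Bar22, Bar23 or Bar9, mutant Bar19).

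Related genes were counted in 3 lists of 22 genes each. In the epicardium and mesothelium list, 8 genes were higher and 0 lower in E9.5 mutants (edgeR), where 5.71% of all genes tested were higher, with a list median of 0.66 against 0.02 over all genes tested. They included the keratin Krt19 (2.41 ± 0.18, SE), and the transcription factor genes Gata6 (0.86 ± 0.20), Hlx (0.66 ± 0.20) and Tbx20 (0.66 ± 0.19). Across stages 5 of the 22 were higher and 0 lower, where 4.47% of all genes were higher: these 4 and Scx (0.66 ± 0.16), a factor of tendon and other connective tissue. In the venous pole and pacemaker list, 5 of 21 tested were higher and 1 lower at E9.5, where 5.71% of all genes were higher and 4.55% lower, with a median of 0.28. Among them were Bmp10 (1.72 ± 0.41), a growth factor of heart muscle, and Tbx5 (0.68 ± 0.14), a T-box factor of the venous pole. The 1 lower gene was Nr2f1 (-0.62 ± 0.14), a nuclear receptor gene named after its value was seen. In the list of signals to the proepicardium, 3 were higher and 0 lower at E9.5, with a median of 0.29. Of these, Dhrs3 (1.21 ± 0.18) acts in retinoid metabolism and Bmp4 (0.42 ± 0.12), which is also in the venous pole list, is a growth factor. At E8.0, where 0.0244% of all genes were called by edgeR, the lists had no called gene.

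The 8 proepicardium markers used for clusters, all of them also in the first list, summed to 44.4 to 119 CPM in the 5 larger E9.5 controls and 145 to 196 in the 6 mutants. None was at 0 in all samples of a group. The 9 cardiomyocyte markers summed to 1253 to 4858 and 676 to 7462 CPM, with overlap. The part of either in the genotype differences of the 8 genes was not tested.

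Cells were grouped into 33 clusters with the 8 genes left out. Cluster 6, 641 cells, raised 6 of 8 proepicardium markers, but none of these was among its 10 leading genes, which were Creb5, Sfrp5, Plagl1, Stk26, Shisa3, Gata4, Lhx2, Smoc2, Gucy1a1 and Igfbp5, so it is called by its number. All 8 genes were found there. At a fixed 5000 UMIs per cell, 66.6% of its cells held a UMI of Alcam, 36.6% of Mab21l2, 36.1% of Tbx18, 32.9% of Wt1, 28.5% of Tcf21, 23.7% of Upk3b, 16.6% of Shox2 and 7.91% of Tbx3. Without thinning the share for Wt1 was 64.1%. In blood-like cells, which should lack these genes, the shares at 5000 UMIs were 0.0903% to 0.452%, and 1.39% for Wt1 without thinning, with a median depth of 28220 UMIs against 18458 in cluster 6.

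The genes differed in where else they were found. Pooled over all stages, as are the levels below with no stage named, Wt1 was at 101 CPM in cluster 6 and at 13.8 or less elsewhere. Upk3b was at 91.5 CPM in cluster 6, 33.3 in cluster 22 and 31.2 in cluster 25, both unnamed. In cluster 25 it was at 13.8 CPM at E8.0 and 66.4 at E9.5, where cluster 22 was at 34.7. Tbx18 was at 142 CPM in cluster 6, 39.8 in unnamed cluster 2 and 36.0 in paraxial mesoderm-like cluster 21. By stage it was second highest in cardiomyocyte-like cluster 23, at 15.5 CPM at E8.0, 56.7 at E8.5 and 109 at E9.5. Tcf21 was higher outside cluster 6, at 134 CPM in cluster 15, against 89.4 in cluster 6. Cluster 15, led by Igfbpl1, Tlx1, Edn1, Kazald1 and Fgf8, raised 5 of 6 pharyngeal muscle progenitor markers and 4 of 5 anterior second heart field markers, and is called by its number. Tbx3 was at 105 CPM in cluster 16, which is lateral plate or allantois-like, and at 16.8 in cluster 6. Shox2 was highest in cluster 23 (123 CPM over all stages, 16.4 at E8.0, 396 at E8.5 and 344 at E9.5), a cardiomyocyte-like cluster led by Sfrp5, Vsnl1, Fbxo32 and the pacemaker channel gene Hcn4. Mab21l2 was at 138 CPM in cluster 23 and 117 in cluster 6 over all stages, and this order depended on stage. At E8.0 it was at 174 CPM in cluster 23, at E8.5 at 79.3 there and 122 in cluster 6, and at E9.5 at 27.5 in cluster 23, 112 in cluster 6 and 141 in cluster 25. Alcam was at 340 CPM in cluster 6 and 137 in cardiomyocyte-like cluster 18. These levels pool cells over samples and have no test.

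**Figure D2:**
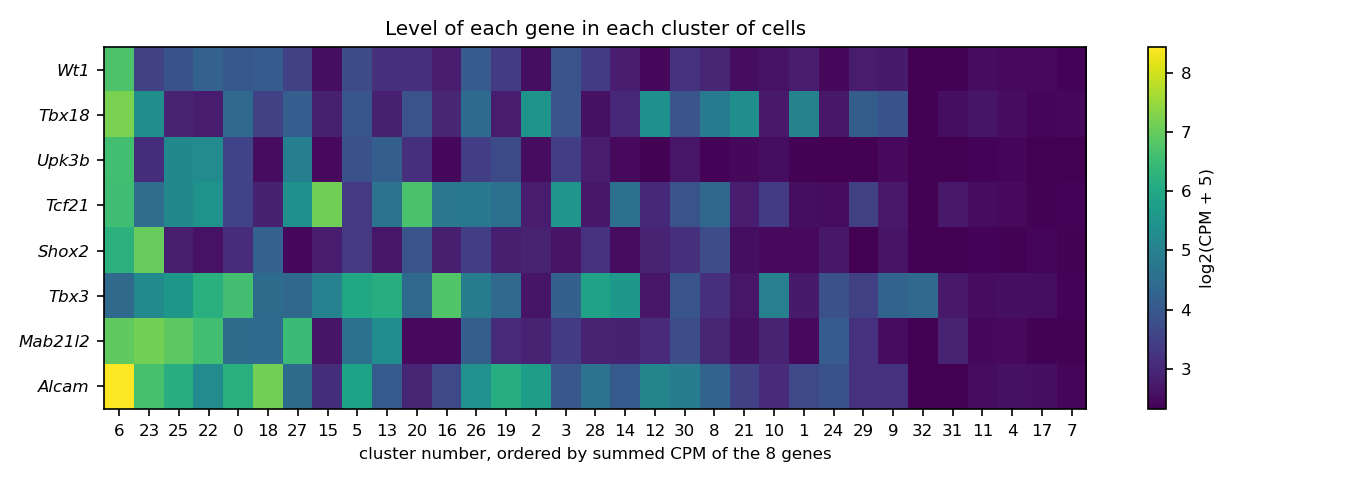
Level of each gene (rows) in each of 33 clusters (columns, ordered by the summed CPM of the 8 genes), as log2(CPM + 5). Cluster 6 is bright in every row but Tbx3, and cluster 23 in the Shox2 and Mab21l2 rows.

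The cells that held these genes differed by stage. Cluster 6 had 2 cells at E8.0, both from mutant Bar27, of 3202. At that stage 60.2% of Mab21l2 UMIs were in cluster 23, 53.4% of Upk3b UMIs in cluster 25, 50.2% of Tbx18 UMIs in cluster 21 and 30.9% of Tcf21 UMIs in cluster 15. At E8.5 cluster 6 held 66.2% of Wt1, 61.5% of Upk3b, 48.7% of Alcam and 43.6% of Tbx18 UMIs. At E9.5 these shares were 50.1%, 43.3%, 37.6% and 32%. All of them pool samples and genotypes. Of the E8.5 Wt1 UMIs, control Bar3 had 509, mutant Bar1 64 and control Bar2 1. In single E9.5 samples of at least 20 cells, the Wt1 share was 26.2% to 60.9% in controls and 16.1% to 89.5% in mutants. For Upk3b it was 23.3% to 61.4% and 0 to 70.2%, for Alcam 1.59% to 53.8% and 24.0% to 81.5%. For Tbx18 it was 9.25% to 55.0% and 39.6% to 82.4%. Shox2 at E9.5 was at 344 CPM in the 71 cells of cluster 23, which held 34.6% of its UMIs. Tbx3 had 44.8% of its E9.5 UMIs in cluster 0, an unnamed cluster led by Gm14226, Lix1 and Gal.

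Over the 33 clusters, the 5 genes most like Wt1 in level were Rarres2 (Pearson r = 0.84), Upk3b (0.84), Creb5 (0.83), Alcam (0.79) and Sv2a (0.79). For Upk3b they were Rarres2 (0.93), Bnc1 (0.90), Wt1 (0.84), Mab21l2 (0.83) and Smoc2 (0.82), so Wt1 and Upk3b stood in each other's lists. Mab21l2 was most like Nos1ap (0.84), Smoc2 (0.84), Rarres2 (0.83), Dkk2 (0.83) and Upk3b (0.83). Among the genes most like Shox2 were Vsnl1 (0.88), Sfrp5 (0.78), Tecrl (0.77) and Hcn4 (0.74). Alcam was most like Bves (0.82), Nos1ap (0.82), Sv2a (0.81), Tmem108 (0.80) and Kcnh7 (0.80). Tcf21 was most like Isl1 (0.78), B3galnt1 (0.78), Spats2l (0.77), Tgfb2 (0.77) and Adamts9 (0.76), and Tbx18 like Flrt2 (0.80), Pappa (0.73), S1pr3 (0.72), Dact1 (0.72) and Foxp2 (0.72). Tbx3 was most like Gm14226 (0.79), Msx2 (0.79), Unc5c (0.79), Gm45889 (0.78) and Krt8 (0.76). These correlations of log2(CPM + 5) describe clusters that share libraries and have no test.

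The share of cells with a UMI was also compared at E9.5. At 5000 UMIs a cell, Wt1 was found in 2.93% ± 0.59 of control cells (SD over 5 samples, 1.88% to 3.28%) and in 7.21% ± 1.76 of mutant cells (6 samples, 4.37% to 8.96%), with no overlap. Upk3b was found in 2.64% ± 0.33 and 4.58% ± 1.55, and Mab21l2 in 4.57% ± 1.59 and 8.63% ± 3.11. Alcam was found in 10.4% ± 2.75 and 17.7% ± 3.72. Tbx3 was found in 7.78% ± 2.26 (4.38% to 10.2%) and 11.3% ± 5.47 (2.04% to 17.2%). The lowest mutant, Bar5, rested on 1 of 49 cells and cannot be placed above or below the controls. The ranges of Upk3b, Mab21l2, Alcam and Tbx3 overlapped. The means of the uncalled genes were 6.33% and 7.78% for Tbx18, 6.69% and 9.42% for Tcf21, and 1.92% and 2.65% for Shox2.

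In E9.5 controls of at least 20 cells, cluster 6 made up 3.00% ± 1.90 of cells (SD, n = 5, 0.610% to 5.0%), and in mutants 9.54% ± 4.14 (n = 6, 4.76% to 15.8%). The ranges overlapped. Within each run every mutant was above every control: 6.83% to 8.49% against 3.71% and 5.0% in run 1, 15.8% against 4.28% in run 2, and 4.76% and 13.2% against 0.610% and 1.38% in run 3. The run 2 mutant, Bar5, had 57 cells. These are shares of a total whose other parts also differed. Of 5733 control and 2785 mutant E9.5 cells pooled, cluster 6 held 201 and 231. Paraxial mesoderm-like cluster 1 held 608 and 31, unnamed cluster 2 held 766 and 41, unnamed cluster 12 held 228 and 19, and cluster 8 held 3 and 312. Clusters 1, 2 and 12 held 9.91%, 20.6% and 3.93% of the E9.5 UMIs of Tbx18. How far such shifts in the other cells move the shares of cluster 6 and the levels of the 8 genes was not tested. Clusters 22 and 25, which also held Upk3b and Mab21l2, had higher mean shares in E9.5 mutants too, with overlap: 2.86% ± 0.50 and 4.55% ± 2.41 for cluster 22, and 0.518% ± 0.412 and 2.63% ± 2.22 for cluster 25. Mutant Bar5 had 1 of 57 cells in cluster 22 (exact binomial 95% interval 0.0444% to 9.39%) and 0 in cluster 25 (limit 6.27%). Control Bar4 of the same run had 2.96% and 1.15%, so Bar5 cannot be placed above or below it. At E8.5 the share of cluster 6 was 6.42% in control Bar3, 0 of 34 cells in control Bar2 (exact binomial 95% limit 10.3%) and 9.45% in mutant Bar1. Cells with a UMI of at least 3 of the 8 genes were also counted, at 5000 UMIs a cell. They made up 1.25% to 4.07% of E9.5 controls and 4.52% to 10.8% of E9.5 mutants. The lowest of these mutants, Bar8, rested on 7 of 155 cells. At E8.0 the controls had 0, 1.14% and 0.352%, and the mutants 2.04%, 2.43% and 1.25%. These E8.0 values rest on 0 to 17 cells a sample. At E8.5 the share was 4.76% in control Bar3, 9.09% in control Bar2 (3 of 33 cells) and 4.79% in mutant Bar1.

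**Figure D3:**
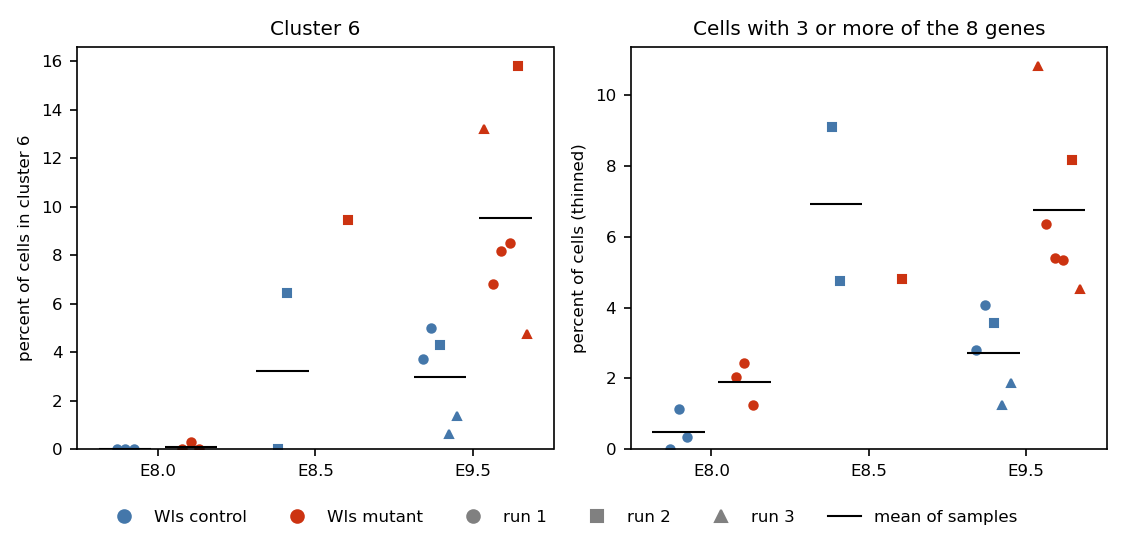
Percent of cells in cluster 6 (left) and percent of cells holding at least 3 of the 8 genes at 5000 UMIs a cell (right), per barcode sample of at least 20 cells, by stage, genotype (colour) and run (symbol), with lines at group means. At E9.5 mutant cells with at least 3 genes make up 4.52% to 10.8%, above the controls at up to 4.07%. The lowest mutant value, of Bar8, rests on 7 of 155 cells.

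Within cluster 6, in the 4 controls and 5 mutants with at least 20 of its cells (E8.5 and E9.5), none of the 8 genes passed, where 0.0469% of 10668 genes were called by edgeR and 1364 had an unadjusted p under 0.05. Mutant Bar10 was the only one of these samples from run 3. With run as a term it carried no weight in the genotype difference, though it is part of the mean given for mutants. Wt1 was at 103 ± 9.52 CPM (SD, n = 4) in controls and 110 ± 57.2 (n = 5) in mutants, while the fit, which adjusts for stage and run, gave a log2 difference of -0.11 (95% interval -0.80 to 0.58). The sign was not stable, with -0.49 to 0.18 when 1 sample at a time was left out. Upk3b differed by -0.40 (-0.90 to 0.11), Alcam by -0.07 (-0.46 to 0.31) and Shox2 by -0.70 (-1.41 to 0.02). Tcf21 differed by -0.59 (-1.34 to 0.15) and Tbx18 by -0.46 (-1.14 to 0.22). Mab21l2, at 0.37 (-0.19 to 0.93), and Tbx3, at 0.06 (-0.54 to 0.67), were positive. All of these intervals hold 0. The 5 genes called were Wls (-5.38), Acta2 (1.64), Lum (1.37), Krt8 (0.98) and the predicted gene Gm8420, for which no fold is given, named after their values were seen. Without the cells of cluster 6, a setting added after seeing the data, the 5 genes called at E9.5 still passed. They were Upk3b 1.30, Wt1 0.96, Mab21l2 0.77, Tbx3 0.70 and Alcam 0.56, with edgeR adjusted p of 0.0117 to 0.0494. The count of all genes called in that fit is not given here. Tbx18 was then -0.48 (edgeR adjusted p = 0.173). Outside cluster 6, Wt1 was at 2.53 to 5.97 CPM in the larger E9.5 controls and 2.54 to 14.49 in mutants, with overlap. Alcam overlapped too, at 11.7 to 29.95 and 25.4 to 54.6 CPM. Upk3b did not, at 2.41 to 4.96 and 5.52 to 13.99 CPM. The ranges of Mab21l2 and Tbx3 overlapped, as in all cells. 

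**Figure D4:**
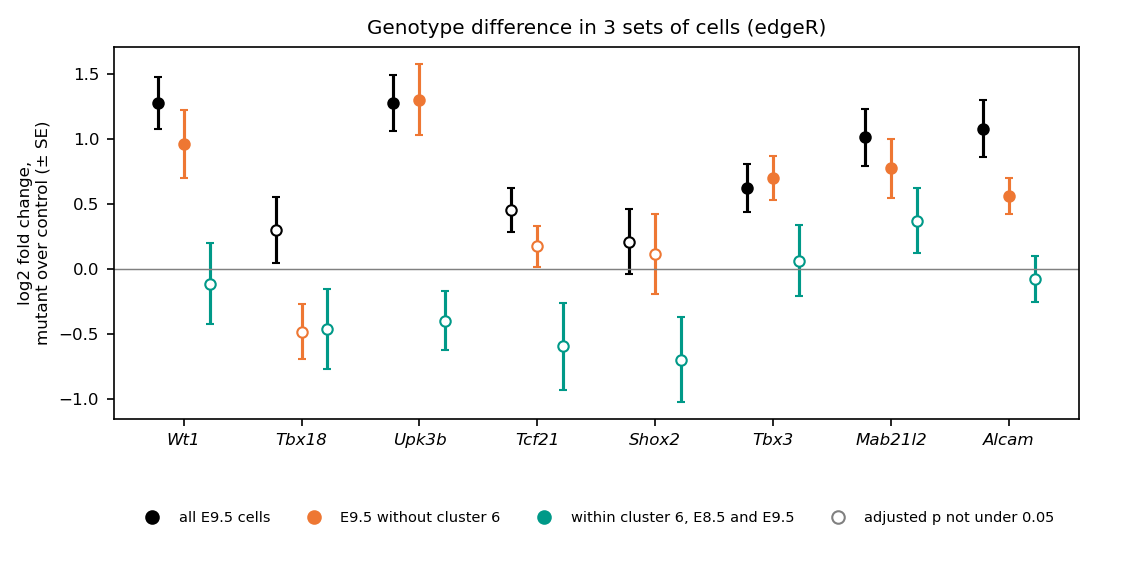
Log2 fold change of mutant over control (y axis, points, bars ± SE, edgeR) for each gene in all E9.5 cells, in E9.5 cells without cluster 6, and within cluster 6. Filled points passed the adjusted threshold. Wt1 is 1.28 in all cells, 0.96 without cluster 6 and -0.11 within it.

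In cardiomyocyte-like cells (clusters 18, 19 and 23, 9 controls and 9 mutants) none of the 8 passed, where 1.91% of 11903 genes were called. Tcf21 was at -0.76 (95% interval -1.24 to -0.28, edgeR adjusted p = 0.0884), Alcam at 0.41 (0.12 to 0.69, 0.139) and Wt1 at 0.90 (-0.07 to 1.87, 0.377). Tnnt2 was 0.30 higher in mutants (edgeR adjusted p = 0.0457). At E9.5 cluster 18 made up 44.3% of the control and 52.9% of the mutant cells of this class, and cluster 23 made up 14.7% and 11.2%. At E8.0 cluster 23 made up 50.3% and 47.5%.

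Cell by cell, at 5000 UMIs each in 14330 cells, Wt1 and Upk3b had the highest ratio of shared cells to the product of their shares among the 28 pairs when all cells were pooled. Both were in 123 cells, against 12.6 from the product of their shares, and 26.3% of Wt1 cells held Upk3b against 1.90% of the other cells. In the 8 samples with at least 20 Wt1 cells, the share of these that held Upk3b was 20.6% to 37.5%, and in cells without Wt1 1.56% to 3.66%. Wt1 and Tbx18 were both in 130 cells, 4.01 times the product. Tbx18 and Shox2 reached 4.09 times, and Upk3b and Mab21l2 4.36 times. Tbx18 and Tbx3 met in 36 cells against 99.95, 0.36 times the product. Of the 28 pairs, 17 were in at least 2 times as many cells as the product. These ratios pool stages, genotypes and clusters of cells whose shares differ, and pairs of other genes were not counted. Within groups Wt1 and Upk3b reached 8.87 times at E8.5, 11.7 times in E9.5 controls and 5.38 times in E9.5 mutants. At E8.0 they met in 0 of 22 Wt1 cells, but only 24 cells held Upk3b, too few to place the ratio. Within cluster 6 the ratio was 1.66. Cells with both Wt1 and Upk3b had a depth of 0.998 of their own sample's median, and 1 of them was a called doublet. Cells of 1 sample are not replicates, and these counts have no test.

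**Figure D5:**
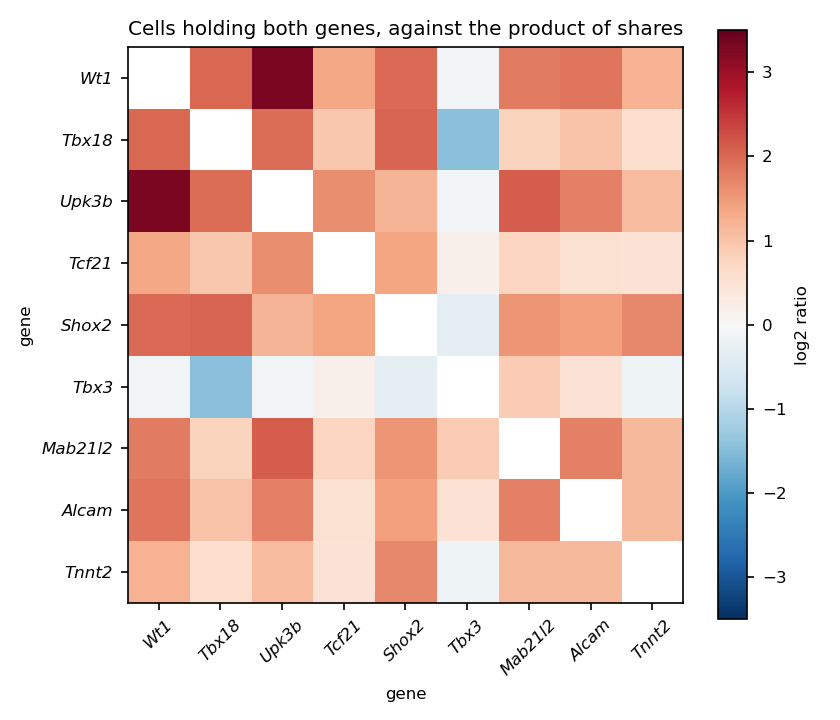
Log2 ratio of the cells that held both genes to the product of their shares, for each pair of the 8 genes and Tnnt2, in 14330 cells at 5000 UMIs each. Wt1 with Upk3b is the highest pair and Tbx18 with Tbx3 the lowest.

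Among Shox2 cells 51.4% also held Tnnt2, against 15.2% of the others. The share was 37.0% in Wt1 cells, 35.4% in Alcam, 35.2% in Mab21l2, 33.9% in Upk3b, 24.2% in Tbx18, 22.9% in Tcf21 and 14.6% in Tbx3 cells. In blood-like cells Tnnt2 was found in 4.11%, its background. For Mab21l2 the share of cells with Tnnt2 was 70.9% at E8.0, 31.1% at E8.5 and 24.8% at E9.5, and in cells without Mab21l2 19.0%, 12.0% and 14.1%. Alcam cells held Tnnt2 in 60.5%, 34.8% and 29.8%, Upk3b cells in 54.2%, 33.3% and 32.3%, and Wt1 cells in 50%, 34.9% and 36.8%, the E8.0 values of Upk3b and Wt1 resting on 24 and 22 cells. In cells without the gene the shares were 18.6%, 10.4% and 12.5% for Alcam, 21.6%, 12.6% and 14.2% for Upk3b and 21.7%, 12.6% and 13.8% for Wt1, each highest at E8.0 as in the cells with the gene. Tbx18 cells held Tnnt2 in 20.8%, 27.9% and 23.6%, and cells without Tbx18 in 21.9%, 12.0% and 14.0%, so not more often at E8.0. For Tbx3 the shares were 16.5%, 12.8% and 14.1% with the gene and 22.6%, 13.3% and 14.9% without it. A larger share of cells with a UMI did not always go with a higher pooled Tnnt2 level. At E9.5 that level was 121 CPM in Upk3b cells against 243 in cells without Upk3b, 125 against 248 for Tcf21, 162 against 246 for Tbx18 and 229.7 against 240.2 for Mab21l2. It was 684 against 175 for Alcam, 657 against 229.9 for Shox2 and 599 against 225 for Wt1. For Mab21l2, the 5 E8.0 samples with at least 20 such cells had 65.7% to 84.0%, and at E9.5 the 8 such samples had 16.7% to 34.8%, with no overlap. All E8.0 samples were in run 1. In run 1 alone the E9.5 values were 16.7% to 34.8%. Shox2 cells held Tnnt2 in 31.7%, 68.6% and 46.7% at E8.0, E8.5 and E9.5, from 41, 105 and 210 cells. In cells without Shox2 the shares were 21.8%, 11.1% and 14.0%.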

How the data were processed

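The deposited matrix holds raw UMI counts per gene and cell, with no normalization by the authors, since its values are whole numbers and cell totals differ. The authors mapped reads with kallisto and bustools 0.46.1, and Cell Ranger and GRCm38 are also named, per the submitters' processing notes. Use of strand and filters on cells are not given in the sources used here. Stage, genotype, barcode and run came from the authors' per-cell table.

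Counts were summed per barcode sample (22 samples, 134457 to 61307782 UMIs) and tested with edgeR 4.0.16 (R 4.3.3) by its two-sided quasi-likelihood test after filterByExpr and TMM scaling. P-values were adjusted by Benjamini-Hochberg over the whole table, with calls at 0.05. Stage and run were terms where they varied. One E7.5 control of 28 cells was a stage of its own and carried no weight. Alternatives were DESeq2 1.42.0, RLE factors, no filter, single runs, male share, and leaving samples out. On simulated counts with 200 changed genes, the E9.5 fit (17227 genes) recovered 70% of genes changed by 1 and 88% of those changed by 2 on the log2 scale, with 17 false calls. The fit for the difference of effects (17872 genes) recovered fewer, 39% and 79%, with 9 false calls.

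Clusters of cells came from scanpy 1.11.5 with leidenalg 0.10.2 (2000 variable genes, 30 components, 20 neighbours, resolution 1), leaving out the 8 genes. A cluster was named "-like" when 60% or more of a class's markers (no fewer than 3) stood 1 log2 unit above the other cells and 1 or more of them was in its 10 leading genes. Cluster 15 met it but is left unnamed, since its leading genes are mixed. Cluster 6 missed the last condition, and was tested in place of the planned proepicardium-like class. Scrublet called 79 cells doublets (0.535%), which were kept. Shares were compared at 5000 UMIs a cell, leaving out 365 control and 82 mutant cells. Named genes were the 8, Tnnt2, Wls, the 5 genes most like each over clusters (Pearson, among genes of at least 20 CPM in a cluster) and, of each list, up to 5 genes called across stages. Some genes that this rule names are not reported here. The genes and lists were chosen with earlier results of these data known.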

Additional observations from a re-analysis of the deposited data

Results flagged for a closer look

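Among the E9.5 mutants of at least 20 cells, Tbx18 in Bar10 was at 42.6 CPM and in the other 5 samples at 15 to 24.8, a gap to the nearest of 0.645 of the whole range. It was the only value set apart in this way among 34 groups of 4 to 10 samples examined, and chance sets apart about 1 in 20 groups. Bar10 had 13.2% of its cells in cluster 6, and the part of that share in the value was not tested.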

How the results depend on the processing

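At E9.5, Wt1 (1.20 to 1.46), Upk3b (1.10 to 1.40), Alcam (0.81 to 1.25) and Mab21l2 (0.94 to 1.23) were called with each of 12 samples left out, and Tbx3 in 7 of 12. With 1 sample left out at a time, genes called ranged over 1259 to 2479 across stages (2132 with all samples), 1 to 10 at E8.0 (4), 603 to 2353 at E9.5 (1766), 29 to 137 for the difference of effects (83), 67 to 402 in cardiomyocyte-like cells (227), 1 to 84 in cluster 6 (5) and 2737 to 4444 for stage (3878). Of the 8 genes, 1 to 4 were called across stages, 4 to 6 at E9.5, 0 to 1 in cardiomyocyte-like cells and 5 for stage. Signs changed with a sample left out for uncalled genes only: at E8.0 Tbx3 (-0.42 to 0.32), Tcf21 (-0.063 to 0.22), Upk3b (-0.33 to 0.64) and Wt1 (-0.74 to 0.23), for the difference of effects Tbx18 (-0.95 to 0.27), in cardiomyocyte-like cells Shox2 (-0.52 to 0.0152), Tbx18 (-0.29 to 0.35) and Upk3b (-0.46 to 0.0276), in cluster 6 Alcam (-0.27 to 0.0722), Tbx3 (-0.24 to 0.22) and Wt1 (-0.49 to 0.18), and for stage Tbx3 (-0.26 to 0.0493). DESeq2 called 3274 genes across stages, 45 at E8.0, 2701 at E9.5, 397 for the difference of effects, 384 in cardiomyocyte-like cells and 29 in cluster 6. It called 4 of the 8 across stages, adding Wt1 (0.79) and Upk3b (0.79), and at E9.5 also Tcf21 (0.51, adjusted p = 0.0255). Its signs differed for Tbx18 in the difference of effects (0.0808) and Shox2 in cardiomyocyte-like cells (0.0927). Without a low-count filter 35 genes were called at E8.0 and 669 for the difference of effects, where 2 of the 8 passed, Wt1 (1.35, edgeR adjusted p = 0.00827) and Upk3b (1.27, 0.0369). With male share as covariate 929 genes were called across stages. In runs 1, 2 and 3 alone 2, 27 and 57 genes and 0, 0 and 1 of the 8 were called across stages, with Tbx3 at -0.0345 in run 2. At E9.5, 2 of the 8 were called in run 1 alone, with Tbx18 at -0.18, and 2 in runs 2 and 3, where 107 genes were called. The count of all genes called in run 1 alone at E9.5 is not given here. For the difference of effects run 1 alone gave 32. In cluster 6, samples of at least 10 cells gave 8 called genes and Alcam at 0.13, and at resolution 2 the clusters chosen by the same markers, 3 and 41, were partly other cells (cluster 41 is led by Postn and Lum, as cluster 25 is) and gave 72. Without the cells of cluster 6, chosen after seeing the data, 1 of the 8 was called across stages, with the count of all genes called there not given here. Tbx18 was then -0.14 across stages and -0.48 at E9.5, and for stage Mab21l2 was -0.20 and Tcf21 -0.12. The causes were not tested. No paired analysis was possible because barcode numbers are not shared between the groups. Depth limits Bar6 (134457 UMIs), Bar5, the Upk3b level of Bar8 and the E8.0 levels of Wt1 and Upk3b.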
